A study of Mus musculus with 12 samples.

Results

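The tubulin isotypes described here are 7 mouse genes, the beta tubulins Tubb2a, Tubb2b, Tubb3, Tubb5 and Tubb6 and the alpha tubulins Tuba1a and Tuba4a. A probe counted as a member if the platform annotation gives it 1 gene symbol and that symbol is the current name or a synonym of one of these genes. Each of 6 genes had 1 such probe, and Tubb2a had none, which left 6 probes of the 14411 that carry 1 gene symbol and of 33012 probes in all. The genes were selected on their log2 differences between congenic and wild type hypothalamus, above all that of Tubb2b, so their values in that comparison are given as a description with no test. The strain comparison in muscle and the comparison of the tissues did not choose them. The tissue comparison does use the same hypothalamus arrays, so it is not fully independent of that selection.

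Alpha and beta tubulin form the dimers from which microtubules are built. Mammals encode several isotypes of each, which are closely alike in sequence and differ mostly in their C-terminal tails, where many tubulin modifications are placed and many motors and other microtubule-associated proteins bind. Neurons, whose axons and dendrites hold dense microtubule bundles, use a beta isotype of their own, Tubb3, beside more widely used ones, while a skeletal muscle fibre holds a sparser lattice around its contractile apparatus.

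RNA came from male mice of the homozygous congenic strain B6.CAST-17, in which a stretch of chromosome 17 of the wild-derived strain CAST lies on the B6 background, and from male wild type B6 mice. The 4 groups were congenic hypothalamus, wild type hypothalamus, congenic skeletal muscle and wild type skeletal muscle, with 3 arrays each, described by the submitters as biological replicates. The labels give no treatment and no age, and do not say whether both tissues came from the same mice. The hypothalamus titles call the congenic animals B6.CAST-17 short congenics and the muscle titles say only congenics, so the labels do not settle whether both tissues came from the same congenic line. They also do not give the borders of the chromosome 17 stretch, which muscle was taken, or how the hypothalamus was dissected. Each array was hybridised with digoxigenin-labelled cRNA and read by chemiluminescence, in 1 colour. All values below are log2 intensities of 1 probe, where base 2 was inferred from the range of 5.35 to 21.13, and folds rest on that base. Probes bind with different strength, so levels are compared between groups for one probe and never between genes. The probe sequences were not used here, and a probe may also bind transcripts of near-identical isotypes, so each value is that of the probe annotated to the gene.

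The tissue labels were borne out by markers. The median of 10 neuronal marker probes was 14.88 to 16.10 on 5 of the hypothalamus arrays and 8.18 to 8.75 on the muscle arrays, and that of 9 skeletal muscle marker probes was 8.67 to 9.20 on the hypothalamus arrays and 19.79 to 20.12 on the muscle arrays. Wild type hypothalamus array 1 stood apart, with a neuronal median of 12.02. Its Spearman correlations with the other 5 hypothalamus arrays were 0.420 to 0.461, where those 5 gave 0.775 to 0.853 among themselves. Of all probes, 9.20% lay more than 3 log2 units below the mean of the other 5 arrays on it and 4.99% more than 3 above. Congenic hypothalamus array 1 held high anterior pituitary markers, with a median of 15.25 over 6 probes against 9.49 to 10.71 on the other hypothalamus arrays. For the isotypes, results that rest on these arrays are given with and without them. Single genes of the other lists are given with all arrays, and without wild type hypothalamus array 1 only where stated.

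Of the 6 measured isotypes, 4 had higher mean levels in hypothalamus than in muscle and the other 2 had lower ones. Tubb2b, Tuba1a and Tubb5 rose in hypothalamus, and Tubb6 and Tuba4a fell, with all 12 arrays in the fit. Tubb3 passed the test only when wild type hypothalamus array 1 was left out. With all arrays, the largest difference among the 6 was that of Tubb2b, 51.9-fold, and the other differences that passed lay between 5.24-fold and 9.04-fold. Without wild type hypothalamus array 1 the Tubb2b difference was 37.3-fold. Within the congenic strain it was 74.5-fold. Within wild type without that array it was 18.6-fold, as was that of Tubb3. The gap between the strains in the Tubb2b fold contains the hypothalamus strain difference on which the genes were selected. It is a description only. In all, 5 of 6 members passed (limma, Benjamini-Hochberg adjusted over all probes, threshold 0.05), 3 higher and 2 lower, where 29.5% of all probes passed, 3633 higher and 6120 lower. Without wild type hypothalamus array 1, 6 of 6 passed, 4 higher and 2 lower, against 40.5% of all probes, 15.7% higher and 24.8% lower. With congenic hypothalamus array 1 left out as well, Tubb2b differed by 5.09, Tubb3 by 3.27 and Tuba1a by 3.16, and 6 of 6 passed. In that fit Tubb5 differed by 2.80, Tubb6 by -3.27 and Tuba4a by -2.21.

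Tubb2b is a beta isotype of neurons that is abundant in the developing brain. Its probe read 18.49, 17.72 and 17.73 in congenic hypothalamus and 18.41, 15.73 and 15.33 in wild type hypothalamus. In muscle it read 11.64, 11.59 and 12.05 in congenic mice and 11.78, 11.03 and 11.12 in wild type mice. The lowest hypothalamus array lay above the highest muscle array by more than 3 units. The tissue difference was 5.70 (SE 0.48, 95% interval 4.67 to 6.73, limma adjusted p = 8.78e-07), and without wild type hypothalamus array 1 it was 5.22 (SE 0.22, limma adjusted p = 1.49e-10).

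Tuba1a is the main alpha isotype of postmitotic neurons. It read 19.92, 19.36 and 19.86 in congenic hypothalamus and 19.31, 19.86 and 19.22 in wild type hypothalamus, and 16.17, 16.55 and 16.81 in congenic muscle and 16.48, 15.96 and 16.49 in wild type muscle. The 2 tissues did not overlap, and within each tissue the strains overlapped. The hypothalamus level was higher by 3.18 (SE 0.29, 95% interval 2.55 to 3.80, limma adjusted p = 2.15e-06), or 9.04-fold, and by 3.21 without wild type hypothalamus array 1.

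Tubb5 is a beta isotype used by most cell types, and its gene lies on chromosome 17. It read 17.02, 17.24 and 17.60 in congenic hypothalamus and 17.46, 17.45 and 17.33 in wild type hypothalamus, against 14.67, 14.64 and 15.23 in congenic muscle and 14.48, 14.27 and 14.34 in wild type muscle. Wild type hypothalamus array 1 did not stand out for this probe. The tissue difference was 2.75 (SE 0.27, 95% interval 2.17 to 3.33, 6.71-fold, limma adjusted p = 3.95e-06).

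Tubb3, the beta isotype commonly used as a neuronal marker, read 16.47, 16.04 and 17.43 in congenic hypothalamus and 10.36, 17.96 and 18.68 in wild type hypothalamus. In muscle it read 14.26, 14.31 and 14.70 in congenic mice and 13.95, 14.17 and 14.18 in wild type mice. The value of 10.36, on wild type hypothalamus array 1, was below every muscle array, while the other 5 hypothalamus arrays were above every muscle array. With all arrays the tissue difference was 1.89 (SE 1.09, 95% interval -0.45 to 4.24, limma adjusted p = 0.226), and without that array it was 3.22 (SE 0.25, 95% interval 2.68 to 3.76, limma adjusted p = 1.04e-07), or 9.32-fold. Within the congenic strain alone, which holds no such array, it was 2.22 (limma adjusted p = 0.00186).

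Tubb6, a beta isotype found mostly outside the nervous system, was lower in hypothalamus. It read 11.73, 11.28 and 10.13 in congenic hypothalamus and 11.60, 11.10 and 11.04 in wild type hypothalamus, and 13.98, 14.13 and 14.69 in congenic muscle and 14.22, 13.95 and 13.98 in wild type muscle. Every hypothalamus array lay below every muscle array. The difference was -3.01 (SE 0.33, 95% interval -3.73 to -2.29, limma adjusted p = 1.29e-05), an 8.05-fold lower level.

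Tuba4a encodes the alpha isotype whose C-terminal tyrosine is not encoded by the gene. It read 16.38, 16.77 and 18.46 in congenic hypothalamus and 18.03, 18.58 and 17.19 in wild type hypothalamus, and 19.70, 19.88 and 20.07 in congenic muscle and 19.69, 19.84 and 20.55 in wild type muscle. The tissues did not overlap, and the hypothalamus arrays spread over more than 2 units in congenic mice. The difference was -2.39 (SE 0.41, 95% interval -3.27 to -1.51, limma adjusted p = 0.000524), or 5.24-fold lower.

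**Figure D1:**
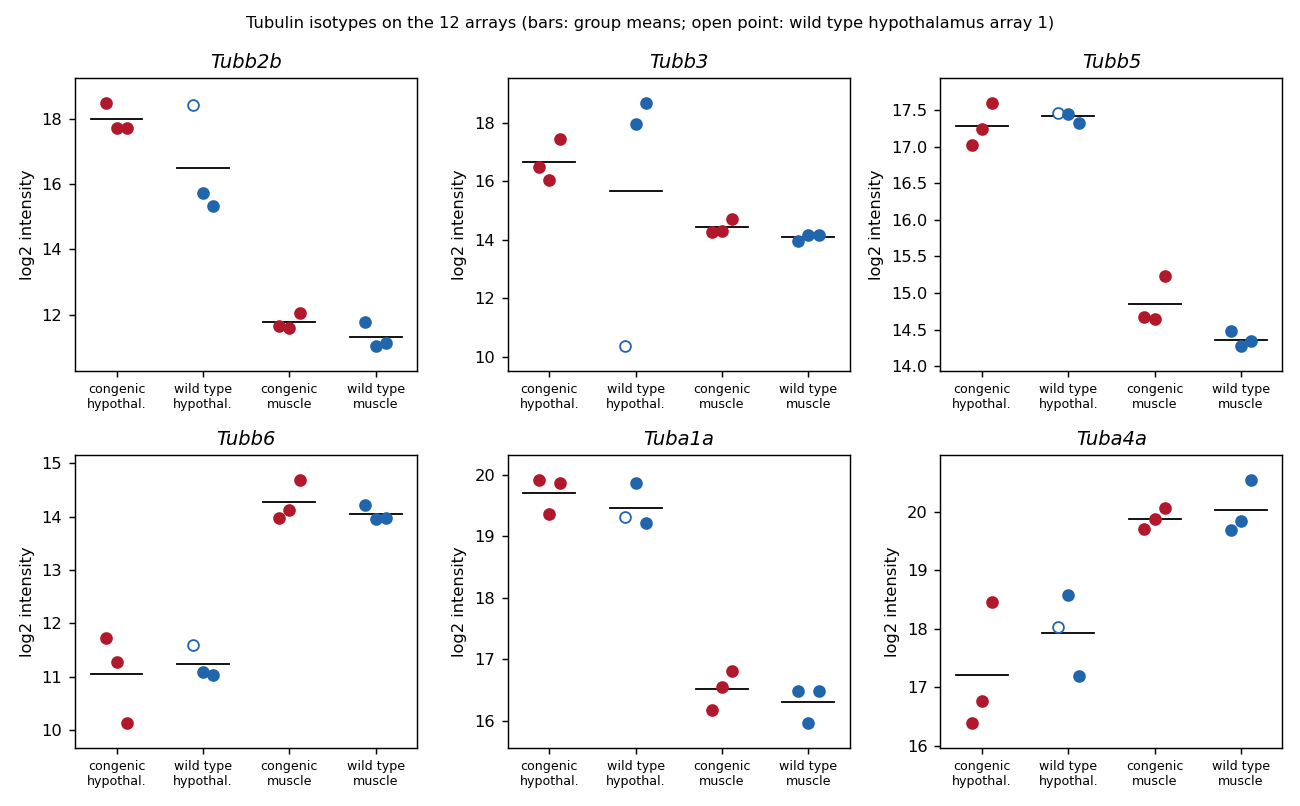
Log2 intensity of the 6 measured tubulin isotypes on each array, by strain and tissue, with congenic arrays in red and wild type arrays in blue. Points are single arrays in the order 1 to 3, black bars are group means, each panel has its own axis that does not start at 0, and the open point is wild type hypothalamus array 1. Tubb2b, Tuba1a and Tubb5 lie higher and Tubb6 and Tuba4a lower on all 6 hypothalamus arrays, and Tubb3 lies higher on 5 of 6.

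The groups did not overlap between the tissues for 5 of 6 members, against 20.2% of all probes (6.91% higher and 13.3% lower), and for 6 of 6 without wild type hypothalamus array 1, against 29.6% (11.8% higher and 17.7% lower). The median tissue difference of the 6 members was 2.32, beside -0.17 over all probes, and without that array 2.97, beside -0.23. The arrays of a tissue share 1 distribution, with a median of 8.98 in hypothalamus and 9.12 in muscle, so the tissues appear to have been scaled apart. When all 12 arrays were quantile normalized together, the median difference of all probes moved to 0.01 and the same 5 members passed in the same direction. Folds moved by over 1.5 times for 4 members. Tubb5 then differed by 3.44, Tuba1a by 3.84, Tuba4a by -1.68 and Tubb3 by 2.49 (limma adjusted p = 0.129), so that the sizes of these differences depend on how the tissues are scaled. Whether a tissue holds fewer cells of a type or less of the RNA per cell cannot be told apart in these bulk samples.

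**Figure D2:**
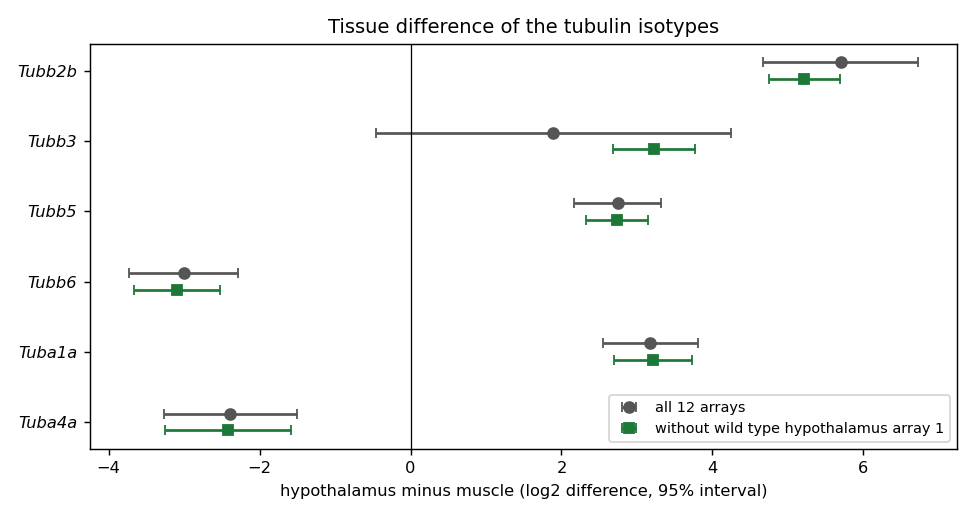
Difference in log2 intensity between hypothalamus and muscle for the 6 isotypes, with 95% intervals from the limma fit. Circles use all 12 arrays and squares leave out wild type hypothalamus array 1, which moves Tubb3 to 3.22, against 1.89 with all arrays, and leaves the other 5 within their intervals.

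The promoter sequences of the 3 members that, like Tubb2b, were higher in hypothalamus without wild type array 1 are shown because they differ in base composition and in the TATA-like motif. They hold the 250 bases before the annotated start, from RefSeq on GRCm38.p6, written 5′ to 3′ on the gene's strand. Capitals mark matches to TATAA on either strand, searched as TATAA and TTATA.
Tubb3 (chr8:123411303-123411552, plus strand): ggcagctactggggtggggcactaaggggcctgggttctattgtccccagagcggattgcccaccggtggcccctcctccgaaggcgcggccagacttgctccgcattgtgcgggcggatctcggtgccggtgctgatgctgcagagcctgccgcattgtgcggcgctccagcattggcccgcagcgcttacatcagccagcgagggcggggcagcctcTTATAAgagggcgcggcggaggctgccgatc
Tuba1a (chr15:98953502-98953751, minus strand): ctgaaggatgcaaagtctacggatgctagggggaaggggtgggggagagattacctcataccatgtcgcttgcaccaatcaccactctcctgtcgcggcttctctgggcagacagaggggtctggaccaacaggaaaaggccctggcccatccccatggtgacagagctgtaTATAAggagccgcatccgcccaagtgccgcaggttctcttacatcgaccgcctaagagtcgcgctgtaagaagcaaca
Tubb5 (chr17:35838302-35838551, minus strand): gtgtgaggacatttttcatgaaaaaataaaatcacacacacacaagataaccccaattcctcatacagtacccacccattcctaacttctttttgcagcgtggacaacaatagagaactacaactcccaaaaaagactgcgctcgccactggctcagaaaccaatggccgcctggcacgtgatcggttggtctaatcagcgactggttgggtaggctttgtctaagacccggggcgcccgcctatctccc
In Tubb3 the 2 matches overlap and begin 31 and 30 bases before the start, and in Tuba1a the single match begins 78 bases before it. Tubb5 has none in this window, Tubb2a has 1, at 29 bases, and Tuba4a has none. The motif was present in 22.8% of 32851 promoter windows of the same length. CCAAT, searched with ATTGG, was found once in Tubb3, once in Tuba1a and 2 times in Tubb5, against 33.8% of windows with a match. GGGCGG, searched with CCGCCC, was found 2 times in Tubb3, once in Tuba1a and not in Tubb5, against 32.7%. The GC content was 68% for Tubb3, 56.8% for Tuba1a and 49.2% for Tubb5, with a median of 52.4% over all windows. Tubb2a and Tuba4a had a GC content of 68.4% and 61.6%, with 2 GGGCGG matches and 0 CCAAT matches each. Tubb2b had no promoter entry in the source used, and Tubb6 was not searched. These are counts of letters and do not show that a factor binds there.

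The other tubulin genes were also split between the tissues. Of 13 listed, 7 were measured and 6 passed in the tissue comparison, 3 higher and 3 lower in hypothalamus, and without wild type hypothalamus array 1 all 7 measured genes passed, 3 higher and 4 lower. Tubb4a, a beta isotype of brain that is prominent in oligodendrocytes, read 16.32, 15.59 and 18.62 in congenic hypothalamus and 9.01, 18.93 and 17.73 in wild type hypothalamus. Its muscle values were 11.32, 10.04 and 10.45 in congenic mice and 11.24, 8.55 and 9.74 in wild type mice. As with Tubb3, wild type hypothalamus array 1 held a value in or below the muscle range, and the tissue difference was 5.81 with it and 7.36 without it (limma adjusted p = 0.00482 and 6.22e-08). Tubg2, a gamma tubulin of the complex that nucleates microtubules, was higher in hypothalamus by 4.79 (limma adjusted p = 2.65e-06), while its paralogue Tubg1 was lower, at -1.26 (limma adjusted p = 0.00545). Tuba3b, an alpha isotype best known from testis, was higher by 2.84 (limma adjusted p = 0.0113). Tuba1c, an alpha isotype closely related to Tuba1a, was lower in hypothalamus, at 10.12, 9.90 and 9.08 in congenic and 13.11, 9.34 and 10.27 in wild type hypothalamus, against 13.39 to 14.26 over the muscle arrays (difference -3.40, limma adjusted p = 0.000265). Tubd1, the delta tubulin of centrioles, was lower too (-2.27, limma adjusted p = 0.000439). Without wild type hypothalamus array 1 the difference of Tuba3b was 3.58 and that of Tuba1c was -3.95.

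The partners of tubulin gave the following counts, with all arrays first and without wild type hypothalamus array 1 second. Among microtubule-binding proteins and stathmins, 9 of 21 measured genes were higher and 3 lower, then 12 and 3. Among motors and severing enzymes, 2 of 15 were higher and 4 lower, then 7 and 4. Among the folding cofactors of tubulin, 1 of 18 was higher and 1 lower, then 6 and 1, and among the enzymes that modify tubulin, 2 of 9 were higher and 1 lower in both fits. These counts stand beside the 3633 higher and 6120 lower of 33012 probes, and beside shares of 15.7% and 24.8% without that array.

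The 3 genes with the smallest p among the higher microtubule-binding proteins were stathmins, which bind free tubulin dimers. Stmn3 was higher by 9.41, Stmn1 by 6.70 and Stmn2 by 5.56 in hypothalamus (limma adjusted p = 1.88e-08, 1.55e-08 and 7.06e-09), and Stmn2 also counts among the neuronal markers above. In the other direction, Clip1, which follows growing microtubule ends, differed by -6.06 (limma adjusted p = 3.82e-08), at 6.99 to 9.02 on the hypothalamus arrays and 13.05 to 14.30 on the muscle arrays. Mapre2, another end-binding protein, and Map4, a microtubule-associated protein known mostly from tissues outside the brain, differed by -2.39 and -2.41 (limma adjusted p = 0.000839 and 0.0344). Map4 was at -1.47 without wild type hypothalamus array 1.

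The 2 motors and severing enzymes that passed as higher in hypothalamus with all arrays were both motor subunits. Kif1a, a kinesin of synaptic vesicle precursors, differed by 5.41 and Dync1i1, an intermediate chain of cytoplasmic dynein, by 3.96 (limma adjusted p = 0.00168 and 0.00285), and without wild type hypothalamus array 1 by 6.68 and 4.92. Klc1, a kinesin light chain, passed only without that array (3.49, limma adjusted p = 4.73e-09). Of the 4 genes of this list that were lower, the 3 with the smallest p were Kif1b (-1.92), a kinesin related to Kif1a, and the severing enzymes Spast (-1.83) and Katna1 (-2.42), with limma adjusted p-values of 0.00300, 0.00296 and 0.00893. Without wild type hypothalamus array 1 these 3 were at -1.62, -1.53 and -1.78.

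Among the modifying enzymes, the deacetylase Hdac6 was higher by 2.00 and the polyglutamylase Ttll1 by 1.92 (limma adjusted p = 0.000185 and 0.0225), and Svbp, the partner of the vasohibins that remove the C-terminal tyrosine of alpha tubulin, was lower (-1.64, limma adjusted p = 0.0127). Among the folding genes, the prefoldin subunit Pfdn1 was lower (-2.03, limma adjusted p = 0.00107) and the chaperonin subunit Cct4 was higher (0.97, limma adjusted p = 0.0177). Without wild type hypothalamus array 1, Tbcb, a tubulin-binding cofactor, and Cct8, another chaperonin subunit, were among the 6 that were higher (0.81 and 0.90, limma adjusted p = 0.00230 and 0.00576).

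**Figure D3:**
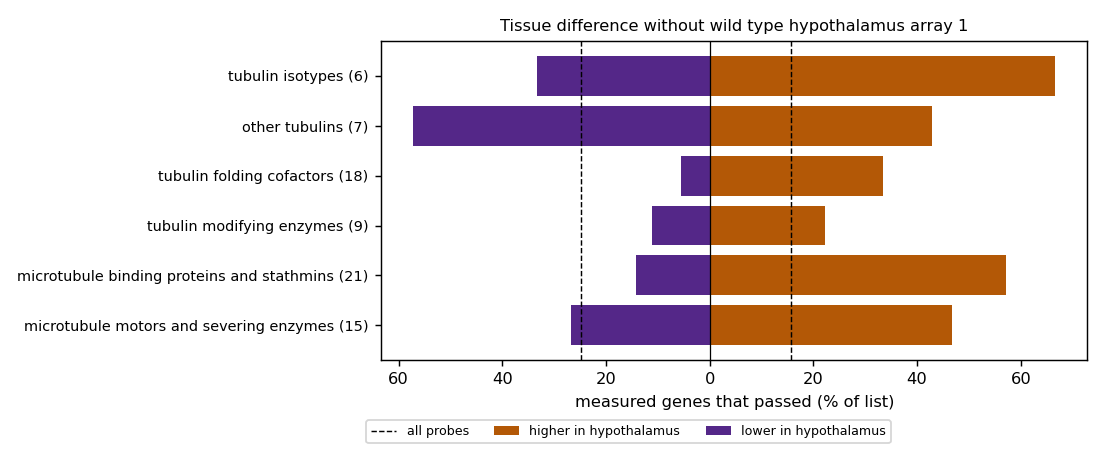
Share of the measured genes of each list, in percent, that passed the tissue test as higher (right) or lower (left) in hypothalamus than in muscle, without wild type hypothalamus array 1. The number measured stands in brackets, and dashed lines mark the shares over all probes, 15.7% higher and 24.8% lower. Microtubule-binding proteins and stathmins had 12 of 21 genes higher, and the isotypes had 4 of 6.

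In skeletal muscle, none of the 6 isotypes passed the test between congenic and wild type mice (limma, adjusted over all probes). The share of all probes that passed was 0.0182%, with 0.00606% higher and 0.0121% lower, so a count of 0 of 6 is close to that of the whole array. At an unadjusted p under 0.05 there was 1 member, Tubb5, and there were 1653 of 33012 probes. The direction was higher in congenic muscle for 5 of 6, with a median difference of 0.27 beside 0.01 over all probes, and the per-array values are those given above.

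Tubb5 averaged 14.85 ± 0.33 in congenic muscle and 14.36 ± 0.10 in wild type muscle (SD, n = 3 each). All congenic arrays lay above all wild type arrays. The difference was 0.48 (SE 0.20, 95% interval 0.03 to 0.94), with a limma p of 0.0378 before and 0.835 after adjustment. Tubb3 likewise did not overlap, with 14.42 ± 0.24 in congenic and 14.10 ± 0.13 in wild type muscle, which differed by 0.33 (SE 0.19, 95% interval -0.10 to 0.75, limma adjusted p = 0.835). These 2 of 6 members without overlap, both higher, compare with 6.65% of all probes that were higher and 5.27% that were lower without overlap.

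For the other isotypes the strains overlapped in muscle. Tubb2b averaged 11.76 ± 0.25 in congenic and 11.31 ± 0.41 in wild type muscle (SD, n = 3 each) and differed by 0.45, with a 95% interval of -0.21 to 1.11 (limma adjusted p = 0.835). Tubb6 differed by 0.22 (95% interval -0.27 to 0.71), Tuba1a by 0.20 (-0.28 to 0.68) and Tuba4a by -0.14 (-0.64 to 0.35), with limma adjusted p-values of 0.863, 0.868 and 0.908. At 3 arrays a group, these intervals leave room for differences in either direction.

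Congenic muscle array 3 held the highest muscle value of 5 of the 6 isotypes, Tubb2b, Tubb3, Tubb5, Tubb6 and Tuba1a. Without it the difference of Tubb5 was 0.29 and that of Tubb3 was 0.19, and those of Tubb6 and Tuba1a were 0.01 and 0.05. Without wild type muscle array 3, which was the highest for Tuba4a, the difference of that gene was 0.12, the reverse of its sign with all arrays. Pearson's r over the 6 muscle arrays was 0.48 to 0.89 for the pairs among these 5 isotypes, highest between Tubb5 and Tubb6, and -0.36 to 0.36 for the pairs of Tuba4a with each of them. These are descriptions over arrays of both strains.

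Markers of other cells in muscle are given as values, with no test. Of 6 fibroblast markers 5 were higher in congenic muscle, and their summed level (log2 of the sum of linear intensities) was 20.76 to 20.85 in congenic and 20.41 to 20.70 in wild type muscle. Of 5 macrophage markers 3 were higher, with sums of 17.12 to 17.29 in congenic and 15.99 to 16.62 in wild type muscle. Of 4 blood markers 3 were higher, with sums of 18.40 to 19.13 in congenic and 17.54 to 18.35 in wild type muscle. Of 4 satellite and regenerating cell markers 3 were higher (median difference 0.27), of 2 peripheral nerve (Schwann cell) markers 2 (0.52) and of 6 pituitary markers 4 (0.48). Dividing cell, neuronal, oligodendrocyte and astrocyte sets had median differences of 0.16, 0.06, 0.02 and -0.22. Of the endothelial markers 2 of 5 were higher in congenic muscle (-0.30), with 1 of 6 ependymal markers (-0.21) and 3 of 9 skeletal muscle markers (-0.06). No marker is listed at 0, since the lowest value on any array was 5.35. The part of these cells in the isotype values was not tested.

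No gene of the other lists passed between the strains in muscle. Of the other tubulins, 6 of 7 had higher means in congenic muscle, with a median difference of 0.40, and those with the smallest p were Tuba1c (0.50) and Tubg1 (0.40). The median was 0.07 over 18 folding genes, 0.08 over 9 modifying enzymes, -0.14 over 21 microtubule-binding proteins and 0.01 over 15 motors and severing enzymes. The smallest p in these lists belonged to Arl2 (0.43) and Pfdn2 (0.21), to Hdac6 (0.60) and Agtpbp1 (-0.43), to Map7 (-1.16) and Tppp (-0.81), and to Fign (2.06) and Kif5b (-0.73). All had a limma adjusted p of 0.835. Fign, a severing enzyme of the fidgetin family, read 14.46, 10.69 and 9.51 in congenic and 8.75, 9.49 and 10.23 in wild type muscle, so that its difference rests on congenic array 1.

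Tubb5 and Tubb4a are the only measured tubulin genes here that lie on chromosome 17, at ranks 354 and 555 of the 656 measured genes of that chromosome in gene order. Whether either lies inside the CAST stretch is not given in the sources used here. Among the 10 measured genes nearest to Tubb5 in that order, none had an unadjusted limma p under 0.05 between the strains in muscle, and their differences ran from -0.44 to 0.41. Of the 10 nearest to Tubb4a, 1 did, and their differences ran from -0.31 to 1.06, with the highest for Slc25a41, a mitochondrial carrier named after its value was seen. The difference was positive for 6 of the 10 near Tubb5 and 9 of the 10 near Tubb4a, beside a median of 0.01 over all probes. Tubb4a itself differed by 0.76 in muscle (limma adjusted p = 0.848).

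In hypothalamus, the differences between congenic and wild type mice are a description, since this comparison was in view when the genes were proposed. Tubb2b had a higher mean and Tubb3, on the arrays without wild type array 1, a lower mean in congenic mice, and the means of the other 4 isotypes differed by less than 1 unit. No probe of 33012 passed in this comparison with all arrays or without wild type array 1 (limma), a share of 0% in each, and 658 and 1761 probes had an unadjusted p under 0.05. Nothing is read from the members against these shares or from their standard errors.

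Tubb2b averaged 17.98 ± 0.44 in congenic (SD, n = 3) and 16.49 ± 1.67 in wild type hypothalamus (n = 3), and the strains differed by 1.49 (SE 0.84). Wild type array 1, at 18.41, lay within the congenic range of 17.72 to 18.49, while the other 2 wild type arrays lay at 15.73 and 15.33. Without array 1 the wild type mean was 15.53 ± 0.28 (n = 2) and the difference 2.45 (SE 0.45), or 5.47-fold. When congenic array 1, with the high pituitary markers, was left out as well, it was 2.20. With array quality weights and all arrays kept, which gave wild type array 1 a weight of 0.10, it was 2.46.

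Tubb3 went the opposite way on the arrays that did not stand apart. It averaged 16.65 ± 0.72 in congenic (SD, n = 3) and 15.66 ± 4.61 in wild type hypothalamus (n = 3), and the strains differed by 0.98 (SE 1.93). Without wild type array 1, at 10.36, the wild type mean was 18.32 ± 0.51 (n = 2) and the difference -1.67 (SE 0.56), or 3.19-fold lower in congenic mice, so that the sign depends on that array. Without congenic array 1 as well it was -1.58.

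The other isotypes overlapped between the strains in hypothalamus with all arrays and without wild type array 1. Tubb5 differed by -0.13 with all arrays and -0.10 without that array, Tubb6 by -0.20 and -0.02, and Tuba1a by 0.25 and 0.17. Tuba4a averaged 17.20 ± 1.11 in congenic (SD, n = 3) and 17.93 ± 0.70 in wild type hypothalamus (n = 3), so that they differed by -0.73 (SE 0.71), and by -0.68 without array 1. Leaving out other arrays moved it more: it was -1.36 when congenic array 3 was dropped and -0.32 when congenic array 1 was, and Tubb6 was at 0.26 in the first of these fits. With all arrays the strains overlapped for all 6 isotypes, where 9.16% of all probes did not overlap, 3.47% higher and 5.69% lower. Without wild type array 1 they did not overlap for Tubb2b and Tubb3, 2 of 6, where 22.6% of all probes did not, 9.32% higher and 13.3% lower.

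**Figure D4:**
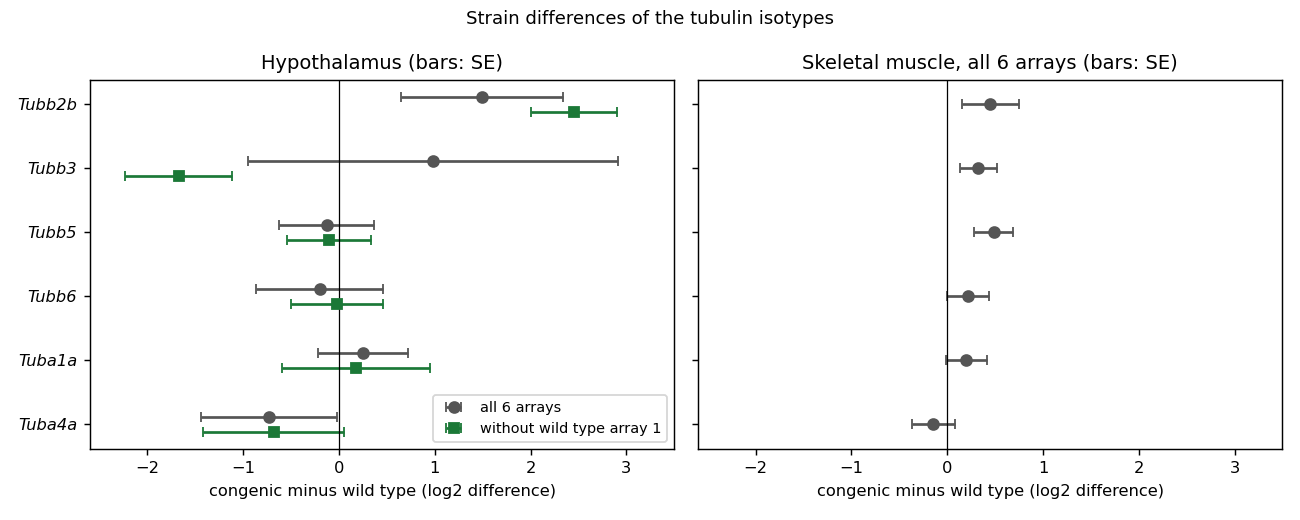
Difference in log2 intensity between congenic and wild type mice for the 6 isotypes in hypothalamus (left) and skeletal muscle (right), with standard errors from the limma fits. In hypothalamus, circles use all 6 arrays and squares leave out wild type array 1, which changes the sign of Tubb3 (-1.67 without it, 0.98 with it). In muscle all differences lie between -0.14 and 0.48.

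Markers of cell types in the hypothalamus samples are likewise given as values. The neuronal median was 15.48, 14.88 and 16.02 in congenic and 12.02, 16.04 and 16.10 in wild type hypothalamus, and 4 of 10 neuronal markers were higher in congenic mice without wild type array 1. The summed neuronal level was 19.53 to 20.28 in congenic and 20.17 to 20.43 in wild type hypothalamus without array 1, and 18.41 on array 1. The oligodendrocyte median, over 5 markers, was 9.74, 11.33 and 12.75 in congenic and 7.90, 10.46 and 11.01 in wild type hypothalamus. All 6 pituitary markers were higher in congenic mice without wild type array 1, with sums of 13.80 to 19.11 in congenic and 14.12 to 14.18 in wild type hypothalamus. In the other direction, 0 of 4 markers of dividing cells (median difference -0.74), 1 of 5 of endothelium (-0.89) and 2 of 6 of fibroblasts (-0.50) were higher in congenic mice without that array. The part of these in the values of Tubb2b and Tubb3 was not tested.

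The tubulin probes were not all low on wild type hypothalamus array 1. Relative to the mean of the other 5 hypothalamus arrays it was lower by more than 3 units for 4 of 13 measured tubulin genes, with deviations of -8.42 for Tubb4a, -6.96 for Tubb3, -6.80 for Tuba8 and -4.61 for Tuba3b. It was higher by 3.37 for Tuba1c and by 1.41 for Tubb2b. Of all probes, 9.20% were lower and 4.99% higher by more than 3 units on this array. Tuba1a (-0.33), Tubb5 (0.14), Tubb6 (0.55) and Tuba4a (0.56) were near the others. Tubb3 thus stood at percentile 66.9 of all probes on that array. A probe annotated to more than 1 alpha tubulin gene read 7.08 there against 18.03 to 20.36 on the other 5 arrays. Another such probe read 8.12 there against 13.15 to 14.45. The RNA or labelling behind this array is not described in the sources used here.

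**Figure D5:**
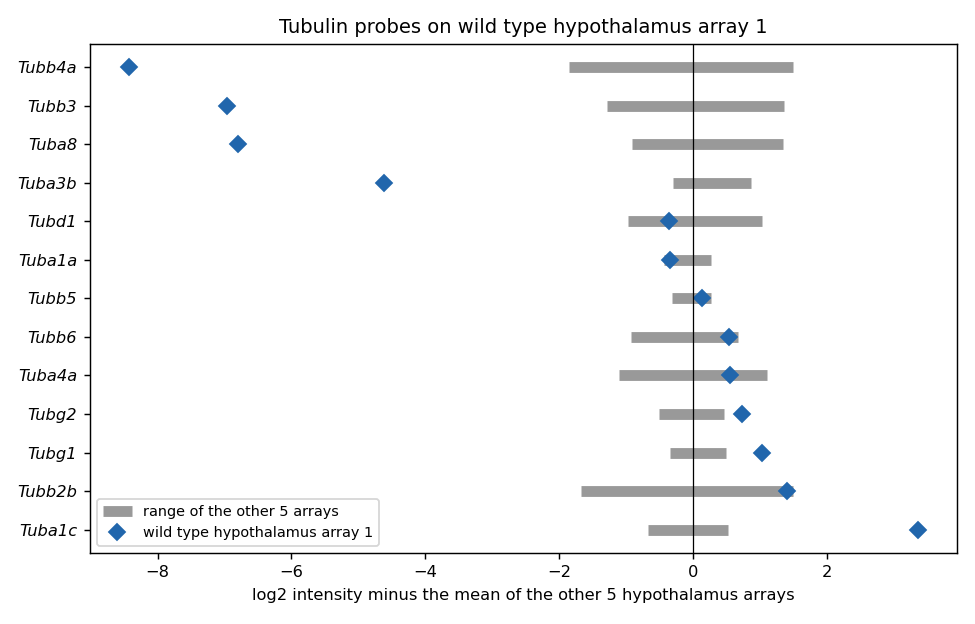
Log2 intensity of 13 tubulin genes on wild type hypothalamus array 1 (diamonds) minus the mean of the other 5 hypothalamus arrays, with the range of those 5 as grey bars. Tubb4a, Tubb3, Tuba8 and Tuba3b lie more than 3 units below the others and Tuba1c more than 3 above, while Tuba1a, Tubb5, Tubb6 and Tuba4a lie within 1 unit of 0.

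The strain difference in hypothalamus minus that in muscle was estimated as an interaction over all 12 arrays. It contains the hypothalamus comparison on which the genes were selected, so no test of it is given for the isotypes. Over all 33012 probes, 0% passed with all arrays and 0% without wild type hypothalamus array 1 (limma), and 1198 and 2224 probes had an unadjusted p under 0.05. The estimates for Tubb2b were 1.04 and 2.00, and those for Tubb3 were 0.65 and -2.00. The hypothalamus titles call the congenics short and the muscle titles do not, so a difference between tissues and one between congenic lines cannot be told apart here. For Tubb3 without that array, every congenic array lay below the 2 wild type arrays in hypothalamus and above those in muscle. Of all probes, 13.3% lay lower without overlap in hypothalamus without that array, and 6.65% lay higher without overlap in muscle. The share of probes with both was not counted.

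In hypothalamus no gene of the other lists passed between the strains. Without wild type array 1 the median difference was -0.57 over the 7 other tubulins, -0.10 over the folding genes, -0.11 over the modifying enzymes, -0.14 over the microtubule-binding proteins and -0.32 over the motors and severing enzymes, of which 3 of 15 were positive. The median of all probes was -0.01. With all arrays the medians were -0.19, 0.39, 0.02, 0.73 and 0.68 in the same order, and -0.07 over all probes, so that array 1 changed the sign of 4 of the 5 list medians. Tuba8, another alpha isotype, read 15.30, 15.07 and 16.10 in congenic and 9.18, 16.09 and 17.32 in wild type hypothalamus, which differed by -1.22 without array 1.

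Over the 11 arrays without wild type hypothalamus array 1 and with each tissue's mean removed, the genes whose pattern was most like that of Tubb2b were Zfp771 (Pearson's r = 0.93), Celf1 (0.93) and Tmed9 (0.92), of 13839 genes compared. Their likeness rests largely on the hypothalamus arrays. Tmed9 read 14.92, 15.08 and 14.35 in congenic hypothalamus and 12.80 and 13.07 on wild type arrays 2 and 3, with 16.21 on array 1. Among the isotypes, Tubb2b and Tubb3 ran opposite over these 11 arrays (r = -0.77), with -0.87 over the 5 hypothalamus arrays and 0.48 over the 6 muscle arrays. Tubb5 and Tubb6 went together in muscle (0.89) and opposite in hypothalamus (-0.93, 5 arrays). These correlations describe a few arrays that share strain and hybridisation, and no test was made of them.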

How the data were processed

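Chemiluminescent arrays of 12 samples in 4 groups of 3 were analysed. The deposited values, taken as log2 intensities, had been normalized by the authors so that the 6 arrays of a tissue share 1 distribution; the sources used here name no software, background correction or detection calls, so signal over background is unknown. Labelling and extraction are per the labels' protocols. The number of arrays limits the precision. Groups came from the sample titles, because the descriptions give all samples the congenic strain.

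Values were used as deposited, unfiltered. Strain differences were fitted per tissue, and tissue and interaction contrasts over 4 group means, in R 4.3.3 by limma 3.58.1. The eBayes step used a trend of the variance on the mean, with Benjamini-Hochberg adjustment over 33012 probes, threshold 0.05. The fits were also run on simulated data with the spread of all arrays. For strain differences of 4 log2 units, 0 of 66 passed in hypothalamus and 54 of 66 in muscle. For 2 units, 23 of 67 passed in muscle. A count of 0 in hypothalamus with all arrays therefore says little about differences of that size. Of the probes, 14411 carried 1 gene symbol and 247 several. GRCm38.p6 served for names, chromosomes and gene order. The members, lists and tests were chosen with earlier results of these data known. All members are named, and from each list every gene that passed if at most 5 did, otherwise the 3 per direction with the smallest p, or, where none passed, the 2 with the smallest p. This rule was applied to the tissue comparison and to muscle. Between the strains in hypothalamus the lists are given as medians with Tuba8 named, and for the interaction no list gene is named. Tuba8 and Tubb4a were also named for their values in the strain comparisons, which were seen first.

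Replicate numbers were checked for pairing. Between the strains, same-numbered samples' deviations from their group means correlated at 0.01 to 0.07 in muscle and -0.13 to 0.14 in hypothalamus. Between the tissues of a strain they correlated at 0.02 to 0.08, so the numbers were not used. Alternatives were other normalization, floors and filters at the 20th percentile, no variance trend, a replicate block, a joint fit, array weights and leaving out arrays. The fits without both wild type and congenic hypothalamus array 1, within wild type without array 1, and with quantile normalization over 11 arrays were added after seeing the data.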

Additional observations from a re-analysis of the deposited data

How the results depend on the processing

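The number of isotypes that passed was 0 of 6 for the strain difference in muscle under every alternative run, and 5 or 6 of 6 for the tissue difference. With the replicate number as a block it was 0 in muscle and 5 between the tissues, where Tubb3 had a limma adjusted p of 0.156, and over all probes 0 passed in hypothalamus and 0 in the interaction. The block changed no call of an isotype. Over all probes, 0 passed between the strains in hypothalamus under every alternative run, and the interaction called 1 probe with quantile normalization over 11 arrays and 0 otherwise (limma). Tubb3 passed between the tissues in 5 alternatives, namely within the congenic strain and in the 4 that lack wild type hypothalamus array 1 (2.22 to 4.22, limma adjusted p at most 0.00186), but within the wild type strain with that array its adjusted p was 0.676. Leaving out each array in turn, the muscle difference of Tubb5 was 0.29 to 0.59, of Tubb2b 0.31 to 0.68, of Tubb3 0.19 to 0.41, of Tubb6 0.01 to 0.36, of Tuba1a 0.03 to 0.37 and of Tuba4a -0.31 to 0.12, where 0.12 reversed its sign. In hypothalamus Tubb2b ranged over 0.91 to 2.45, Tubb3 over -1.67 to 2.49, Tuba4a over -1.36 to -0.32, Tubb6 over -0.54 to 0.26, Tubb5 over -0.28 to 0.0049 and Tuba1a over 0.13 to 0.45, and with array weights Tuba4a was at -1.24. The tissue difference of Tubb3 ranged over 1.14 to 3.22. Over all probes, 6 passed in muscle, and 1 in the joint fit, 2 with values floored or without a variance trend, and 2 to 8 with each array left out (3 when congenic array 2 was dropped, 2 for wild type array 2 and 3 for wild type array 3). In the tissue comparison 9753 passed with all arrays, 3718 within wild type, or 12173 without its hypothalamus array 1, and 8769 within the congenic strain. Quantile normalization over 12 arrays gave 4292 higher and 4826 lower in place of 3633 and 6120. Testing each probe of a gene was not run, since each isotype had 1 probe. With no detection calls, low values cannot be told from background. Cross-hybridisation between isotypes was not tested.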
